A study of Mus musculus with 9 samples.

Results

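H3K27ac interactions that join 2 distal peaks were examined in mouse embryonic stem cells before and after auxin treatment of a line with degron-tagged CTCF. An interaction, or pair, is a combination of 2 bins of 2 kb whose contact count exceeded the authors' prediction at a q-value of up to 0.05. Among the pairs listed at that q-value, members were chosen by peak flag, annotation and distance, with no further rule on their contacts. Both bins carried the authors' peak flag, they lay under 300 kb apart, and neither bin held a transcript start of any gene in GENCODE M21 on mm10. Of 48933 H3K27ac pairs over both lists, 15972 met this rule. The untreated list held 12071 of them among 36274 pairs (33.3%), and the IAA list held 9630 among 28210 (34.1%). For comparison, 15690 pairs joined a bin with a start to a distal peak and 8544 joined 2 bins with starts.

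The study profiled 9 MNase HiChIP libraries of E14 mouse embryonic stem cells, all of the genotype CTCF AID, so the untreated cells carried the tag as well. H3K27ac was profiled in 2 libraries without IAA and in 2 libraries after 12 h of IAA, while CTCF (2 libraries) and RAD21 (3 libraries) were profiled without IAA. The cells grew without serum, with leukemia inhibitory factor and the inhibitors PD0325901 and CHIR99021, a medium that holds them in a naive pluripotent state. Each group was deposited as 1 list pooled over its replicates, which the labels do not describe as separate cultures. No value therefore has a replicate error, and a test on contact counts compares 2 pooled libraries and not the conditions. CTCF protein after IAA, cells without the tag, and CTCF or RAD21 contacts after IAA were not analysed here, and the labels do not say whether the line is 1 clone.

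HiChIP ligates neighbouring DNA ends inside crosslinked nuclei, after which an antibody pulls down the ligation products. Here micrococcal nuclease (MNase) cut the chromatin. H3K27ac is a histone acetylation found at active promoters and enhancers, and peaks away from gene starts are often used as a map of candidate enhancers, which can lie within introns or far from any gene. CTCF is a zinc-finger protein that halts loop extrusion by the cohesin complex, of which RAD21 is a subunit, and loops tend to form between CTCF motifs that point towards each other. IAA is an auxin that triggers degradation of proteins carrying an auxin-inducible degron (AID).

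The sequences behind 4 sets of members are shown first, because their loci recur below. They are GRCm38 (mm10) reference sequence, 60 bases each, written 5′ to 3′ on the strand named, and the capitals mark the motif match in the bin. The CTCF core was searched on both strands, allowing 1 mismatch where no exact match was found. The following 4 stretches come from 2 of the pairs with the lowest ratios of contacts after IAA to contacts before, both listed for CTCF and for RAD21. At each pair the left match lay on the plus strand and the right match on the minus strand, so the matches pointed towards each other. Another pair of this kind, between Foxn2 and Ppp1r21, had no match in its left bin and is not shown.
Sox2 pair, left bin, chr3:34647863-34647922, plus strand: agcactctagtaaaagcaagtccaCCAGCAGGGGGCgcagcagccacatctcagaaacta
Sox2 pair, right bin, chr3:34760080-34760139, minus strand, 1 mismatch: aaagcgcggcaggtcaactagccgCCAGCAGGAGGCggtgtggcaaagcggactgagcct
Ifitm2 and B4galnt4 pair, left bin, chr7:140959337-140959396, plus strand, 1 mismatch: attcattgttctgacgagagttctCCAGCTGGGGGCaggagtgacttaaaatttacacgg
Ifitm2 and B4galnt4 pair, right bin, chr7:141048403-141048462, minus strand: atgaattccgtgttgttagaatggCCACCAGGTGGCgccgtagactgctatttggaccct

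The next 3 bins lie upstream of Rbfox2. The pairs of bins 1 and 3 and of bins 2 and 3 are followed below, as is a pair from bin 2 to a bin next to bin 3 that is not shown. Their first matches all lay on the minus strand.
Rbfox2 bin 1, chr15:77336606-77336665, minus strand, 1 mismatch: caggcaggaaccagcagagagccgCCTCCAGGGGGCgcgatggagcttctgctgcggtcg
Rbfox2 bin 2, chr15:77342165-77342224, minus strand: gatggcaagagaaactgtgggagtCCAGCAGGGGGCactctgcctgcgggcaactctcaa
Rbfox2 bin 3, chr15:77358832-77358891, minus strand, 1 mismatch: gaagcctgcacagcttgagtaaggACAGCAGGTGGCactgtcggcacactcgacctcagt

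The member with the most untreated contacts among those in the CTCF list joined 2 bins near Klrb1c whose stretches around the CTCF core were identical at 59 of 60 positions. They are shown because near-identical sequence in both bins bears on how reads are placed.
Klrb1c pair, left bin, chr6:128761011-128761070, minus strand: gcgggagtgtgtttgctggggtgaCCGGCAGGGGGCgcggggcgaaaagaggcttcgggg
Klrb1c pair, right bin, chr6:128799755-128799814, minus strand: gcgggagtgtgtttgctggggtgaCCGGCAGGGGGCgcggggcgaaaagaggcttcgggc

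The OCT4-SOX2 composite motif, bound by OCT4 and SOX2 together in pluripotent cells, was found in member bins nearest to Klf5, Tet2 and Lefty2. The Lefty2 bin is not shown. The bin with the most partners near Nanog held no match to it and is shown with its KLF match (CCNCACCC). These sequences, and those near Rbfox2, were picked after their values were seen.
Klf5 bin, chr14:99337460-99337519, minus strand: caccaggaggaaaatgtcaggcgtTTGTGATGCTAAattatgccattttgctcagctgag
Tet2 bin, chr3:133517871-133517930, minus strand: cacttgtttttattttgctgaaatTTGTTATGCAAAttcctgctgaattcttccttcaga
Nanog bin, chr6:122702612-122702671, plus strand: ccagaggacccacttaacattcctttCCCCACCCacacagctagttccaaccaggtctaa

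Motif matches were counted over all 12395 member bins. The CTCF core lay in 3.70% of them, against 4.08% of the peak bins with a start, 3.98% of all 27762 peak bins in the lists, and 2.25% of the member bins moved by 10 kb. Among member bins that were anchors of a CTCF-list interaction it lay in 17.1%, and among the others in 0.719%. The OCT4-SOX2 composite lay in 1.29% of member bins, 0.540% of bins with a start and 0.969% of all peak bins. The ESRRB motif TCAAGGTCA, bound by an orphan nuclear receptor of naive stem cells, lay in 10.3% of member bins and 5.85% of bins with a start, with 8.27% over all peak bins. CCNCACCC, the motif of the Krüppel-like factors, lay in 58.5% and 64.5%, with 60.1% over all peak bins. Member bins were therefore richer in the ESRRB and OCT4-SOX2 letters and poorer in the KLF letters than bins with starts, whose median GC content was 52.2% against 47.1%. When moved by 10 kb, member bins held the OCT4-SOX2, ESRRB and KLF letters in 0.928%, 7.16% and 50.5%, below their own shares. Bins with a start gave 0.692%, 7.30% and 49.1% when moved, so among these motifs only their KLF share was above the moved one. Their CTCF core share of 4.08% was also above the moved one, 2.33%. A match is a string of letters and not a bound site.

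Distal pairs were short and sparsely counted. Their median span was 18 kb in the untreated list (quartiles 10 and 46 kb), against 24 kb for pairs of a start with a distal peak and 34 kb for pairs of 2 starts. Spans of up to 20 kb made up 53.7% of them and spans over 100 kb made up 9.59%. The median contact count was 14 without treatment (range 6 to 428) and 15 after IAA (range 7 to 509). The median ratio of observed to predicted contacts was 5.51 without treatment and 5.25 after IAA. At the distance limit, the 49 untreated members of 280 to 298 kb had a median of 10 contacts and the 20 pairs of distal peaks just outside it, at 300 to 318 kb, a median of 9.

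Of the untreated members, 5729 reappeared in the IAA list with both bins unchanged, which is 47.5% (95% Wilson interval 46.6 to 48.4). Over all untreated H3K27ac pairs that share was 42.9%. It was 45.9% for pairs of a start with a distal peak and 48.8% for pairs of 2 starts, so the distal pairs lay between the other classes of peak pairs. Only the untreated list held 6342 further members, and only the IAA list held 3901. Seen from the IAA list, 59.5% of members were also called without treatment, against 55.1% over all pairs. Intervals of shares reflect counting error alone, and read pairs lacking molecular identifiers may include copies of 1 molecule.

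Whether a distal pair was called again followed its untreated count. The share called again was 14.9% at 6 to 9 contacts, 32.8% at 10 to 14, 59.6% at 15 to 24, 86.5% at 25 to 49 and 98.9% at 50 contacts or more. Pairs of a start with a distal peak gave 14.4%, 32.5%, 59.3%, 88.0% and 98.9% in the same classes. Pairs of 2 starts lay higher in the lower classes, with 19.5% at 6 to 9 and 65.9% at 15 to 24 contacts. The lists give no count for a pair that was not called, so a pair missing from a list is not shown to be absent. The share called again ranged from 40.6% to 53.5% over 19 chromosomes.

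**Figure D1:**
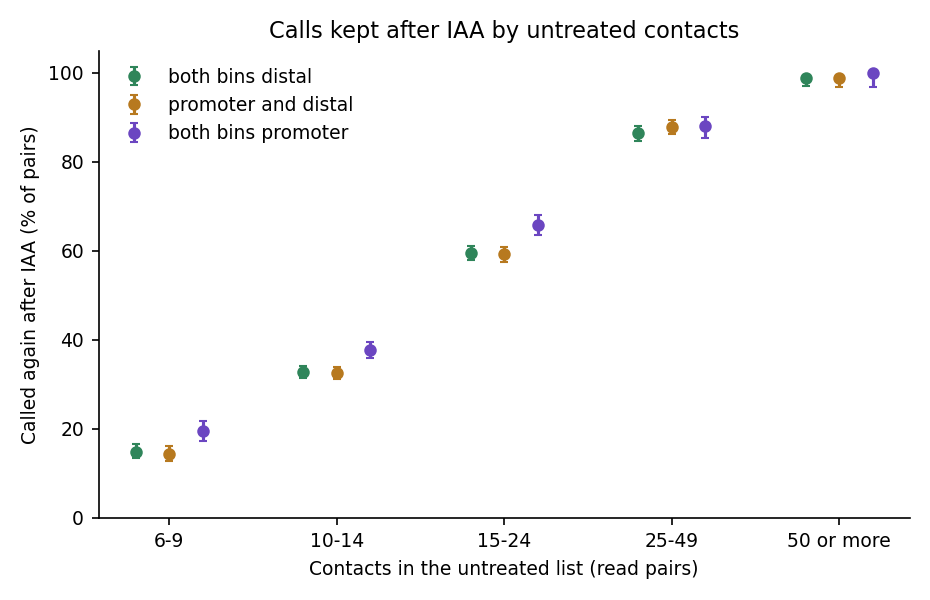
Share of untreated pairs called again after IAA (y axis, %) by untreated contact count (x axis, read pairs) for pairs of 2 distal peaks, of a start with a distal peak and of 2 starts; bars are 95% Wilson intervals. Distal pairs go from 14.9% at 6 to 9 contacts to 98.9% at 50 or more, and lie close to pairs of a start with a distal peak in every class.

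For the 5729 members in both lists, contacts were compared as a log2 ratio of IAA over untreated, after scaling to the contacts of all shared H3K27ac pairs. These members held 135458 contacts without treatment and 133994 after IAA. Their median log2 ratio was 0.03, which is the value of equal raw counts, and the mean was 0.02 (SD 0.42 over pairs). Over all 15551 shared H3K27ac pairs the median was 0.03 and the mean 0.01. Scaling to the authors' model totals (12551236 and 14629323 contacts) moves every ratio by -0.25, and the members' median then becomes -0.22. Dividing by the coverage of the bins gave -0.012, so the sign of this median is set by the scaling.

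Few single members passed the test on contacts, which at these counts does not show that few differed. In the exact binomial test (two-sided, p-values adjusted over all shared pairs by Benjamini-Hochberg), 5 members were higher and 4 lower at an adjusted p under 0.05. The background over all shared pairs was 0.0965% higher and 0.0386% lower. An unadjusted p under 0.05 was found for 263 members (4.59%), against 4.41% of all shared pairs. With the model totals 2 members were higher and 22 lower, and 6 of the 9 members (2 higher and 4 lower) were among them. The share of all shared pairs called under this scaling is not given here, so these counts cannot be read against it. By size alone, 70 of 5531 members with at least 20 contacts over both lists were at least 2-fold higher and 63 at least 2-fold lower, which is 1.27% and 1.14%. The same background was 1.34% higher and 1.29% lower. The shares of 2-fold differences were thus near the background. Under the model totals 15 members were at least 2-fold higher and 201 lower (0.271% and 3.63%), against 0.316% and 4.11% of all shared pairs. Of the binomial calls over all pairs, 4 of the 6 falls and 5 of the 15 rises were distal. Distal pairs were 5729 of the 15551 pairs tested, and so few calls cannot be read against that share.

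**Figure D2:**
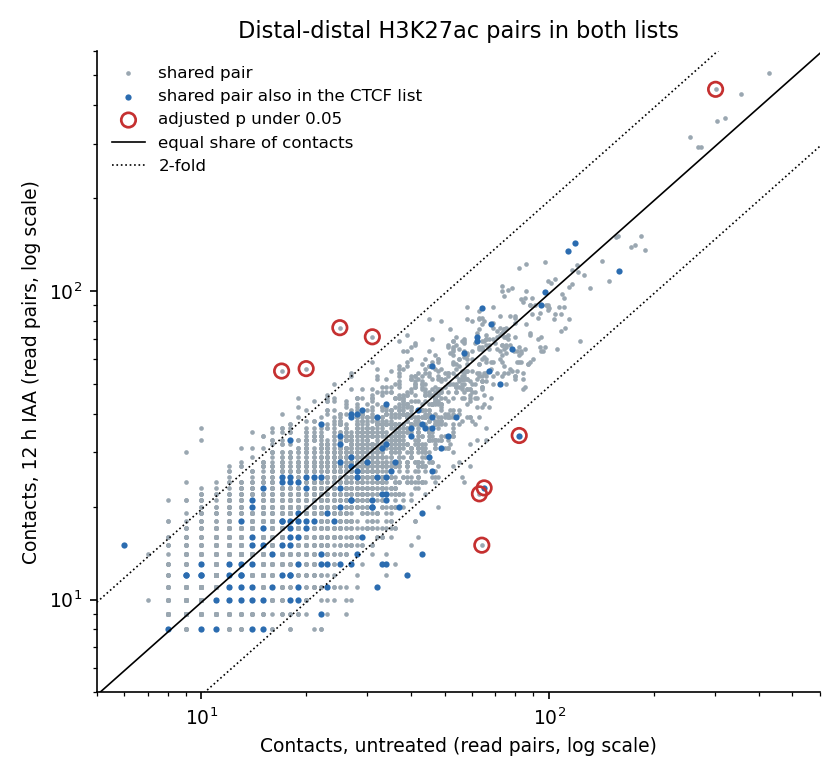
Contacts of the 5729 distal pairs in both lists, untreated (x axis) and after 12 h of IAA (y axis), in read pairs on log scales; the solid line marks an equal share of contacts, dotted lines 2-fold differences, blue points pairs also in the CTCF list and red circles the 9 pairs with an adjusted p under 0.05. Of the circled pairs 5 lie above the line and 4 below it, and the blue points lie more often below it (62.7%).

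The 4 members that fell lay at 3 loci. On chromosome 1, a pair of 28 kb between an intron of Dusp27 (chr1:166124001-166126000) and a bin with an exon of Gpa33 (chr1:166152001-166154000) had 64 contacts without treatment and 15 after IAA (log2 ratio -2.06, adjusted p 8.05e-05 in the binomial test). It was in the RAD21 list but not the CTCF list. Near Rbfox2, which encodes a splicing regulator, the pair of bins 1 and 3 printed above spanned 22 kb and had 82 and 34 contacts (log2 ratio -1.24, adjusted p 0.0147). This pair was listed for CTCF and for RAD21, and so was the pair of bins 2 and 3, which had 52 contacts against 5.21 predicted without treatment and was not called after IAA. The pair of 14 kb from bin 2 to the bin next to bin 3 (chr15:77356001-77358000) had 63 and 22 contacts (log2 ratio -1.49, adjusted p 0.0111) and was in neither list. The third locus was an intron of Fam189a1, where bins 10 kb apart (chr7:64830001-64832000 and chr7:64840001-64842000) had 65 and 23 contacts (log2 ratio -1.47, adjusted p 0.0111). That pair was in the CTCF list. The coverage of Rbfox2 bins 1 and 3 was 9922 and 6454 read pairs without treatment and 10868 and 6526 after IAA. Bin 2 went from 6224 to 6060 and the bin next to bin 3 from 10638 to 9795. The Dusp27 bin went from 5477 to 5758 and the Gpa33 bin from 2242 to 1860. Coverage of the Fam189a1 bins went from 4355 to 4847 and from 2959 to 3202. The part of coverage in the falls was not tested.

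The 5 members that rose lay outside the CTCF and RAD21 lists. Near Eif2b5, which encodes a subunit of a translation initiation factor, a pair of 18 kb (chr16:20478001-20480000 and chr16:20496001-20498000) had 25 contacts without treatment and 76 after IAA (log2 ratio 1.63, adjusted p 5.46e-04). Within Fbxo36 a pair of 8 kb had 17 and 55 contacts (log2 ratio 1.72, adjusted p 0.00634). Near Tmem64 a pair of 6 kb (chr4:15236001-15238000 and chr4:15242001-15244000) had 301 and 450 contacts (log2 ratio 0.61, adjusted p 5.79e-05), but its bins shared 34.5% of their 31-base words (all stretches of that length), and without members that share 5% or more 4 rises are left. Within Sfi1 a pair of 10 kb had 31 and 71 (log2 ratio 1.22, adjusted p 0.0447). The fifth pair, of 6 kb, lay 344 kb from Gm8797, its nearest protein-coding gene, and had 20 and 56 contacts (log2 ratio 1.51, adjusted p 0.0224). With the model totals the adjusted p was 0.0106 near Eif2b5 and 0.0408 in Fbxo36, and 0.110, 0.135 and 0.0797 at Tmem64, Sfi1 and Gm8797. Coverage moved with these rises. Over 7757 member bins listed in both conditions the median ratio of coverage after IAA to coverage before was 1.17, while it was 1.83 over 2 bins near Gm8797, 1.35 over 14 bins in Fbxo36 and 1.31 over 20 bins at Sfi1. The bins of the Eif2b5 pair went from 7438 to 10501 read pairs and from 2572 to 4420, and those of the Tmem64 pair from 689 to 921 and from 3093 to 3907. Its part in the rises was not tested.

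Other large ratios did not pass the adjustment. The Sox2 pair printed above joins a bin in the noncoding gene Sox2ot, 3.40 kb from the Sox2 start, with an intergenic bin 111 kb from it. It had 32 contacts without treatment and 11 after IAA (log2 ratio -1.51, adjusted p 0.385). The Ifitm2 and B4galnt4 pair, of 90 kb, had 39 and 12 contacts (log2 ratio -1.67, adjusted p 0.103). A pair of 254 kb between Foxn2 and Ppp1r21 (chr17:88256001-88258000 and chr17:88510001-88512000) had 43 and 14 (log2 ratio -1.59, adjusted p 0.0892). These 3 pairs were all in the CTCF and the RAD21 list. The remaining one of the 5 largest falls was in neither list and had no anchor of either in its bins. It joined a bin with an exon of Iqgap1 to an intergenic bin 15.9 kb from the Zscan2 start (chr7:80744001-80746000 and chr7:80844001-80846000), and had 26 and 9 contacts (log2 ratio -1.50, adjusted p 0.609). At the other end, a pair of 98 kb between AV205837 and an intron of Bdh1 on chromosome 16 had 10 and 36 contacts (log2 ratio 1.88, adjusted p 0.0612). A pair of 36 kb from an intron of Dclk3 to an intergenic bin beyond the end of that gene had 10 and 33 (log2 ratio 1.75, adjusted p 0.139). A pair of 46 kb from an intron of Fbxl5 to an intergenic bin near Cd38 had 9 and 30 (log2 ratio 1.77, adjusted p 0.212 in the binomial test). These rises were in neither list. Both bins of the Dclk3 pair and the Bdh1 bin were anchors of both lists, whereas the Fbxl5 pair had no anchor.

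Members that coincided with a CTCF interaction were called again less often. A CTCF-list anchor lay in both bins of 1015 members (6.35%), in 1 bin of 4527 (28.3%) and in neither bin of 10430 (65.3%). The shares called again were 35.7% (32.5 to 38.9), 44.2% (42.6 to 45.9) and 50.2% (49.1 to 51.3). The pair itself was in the CTCF list for 511 members (3.20%), of which 478 were in the untreated list, 175 in the IAA list and 142 in both. Of those 478, 29.7% were called again (25.8 to 34.0). By contrast, members with an anchor in both bins whose pair was not in the CTCF list were called again in 43.1% (38.2 to 48.1) of 383 cases. The intervals of these shares do not overlap, but the median spans were 42 kb and 24 kb. For pairs listed for CTCF and also for RAD21 the share was 23.3% (18.9 to 28.5) of 296. For pairs in the CTCF list alone it was 40.1% (33.3 to 47.4) of 182, an interval that overlaps that of anchored pairs outside the CTCF list. For pairs in the RAD21 list alone it was 67.6% (61.5 to 73.2) of 244, whose median of 23 untreated contacts was above the 11 of pairs in both lists and the 14 of pairs in the CTCF list alone.

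The low share belonged to long spans. CTCF-list members of 6 to 10 kb were called again in 60.8% of cases (49.4 to 71.1), and members without an anchor in 54.5%. From 22 to 50 kb the shares were 27.9% and 50.7%, from 52 to 100 kb 16.2% and 43.7%, and over 100 kb 12.9% and 41.4%. Over 50 kb, 32 of 218 CTCF-list members were called again, or 14.7% (10.6 to 20), against 42.7% (40.1 to 45.3) of 1429 members without an anchor. Both sets had a median of 10 untreated contacts. Members with an anchor in both bins but outside the CTCF list gave 25% (18 to 33.6) of 116 at these spans, an interval that overlaps that of the CTCF-list members. At 6 to 10 kb they gave 50% (39.9 to 60.1), which also overlaps the interval of the CTCF-list members. From 22 to 50 kb they lay above the CTCF-list members, with 51.0% (41.3 to 60.7) against 27.9% (20.9 to 36.2). Within count classes the gap was seen under 25 contacts. At 10 to 14 contacts 15.7% of CTCF-list members and 34.9% of members without an anchor were called again, and at 15 to 24 contacts 40.9% and 61.3%. At 25 contacts or more the shares were 86.3% and 88.8%.

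**Figure D3:**
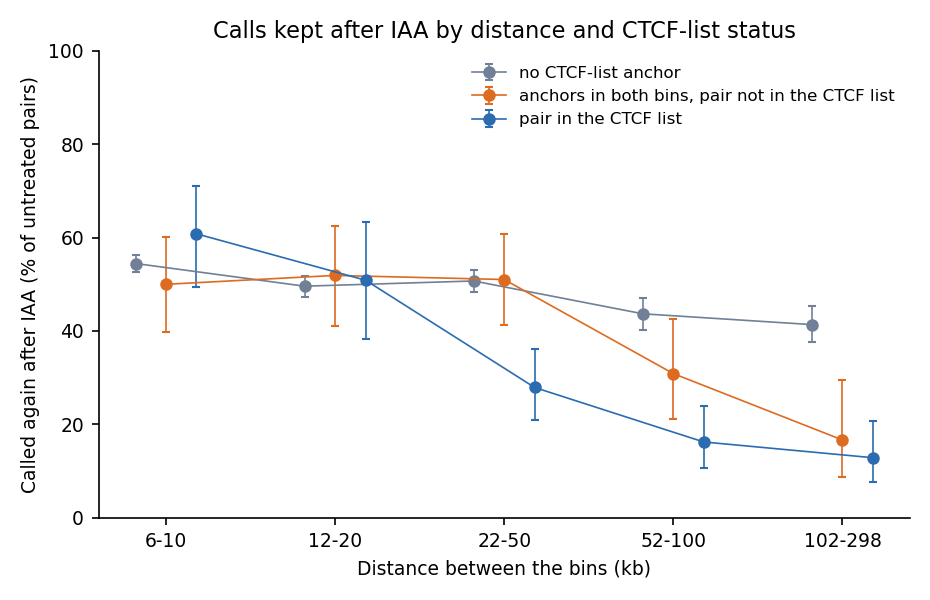
Share of untreated distal pairs called again after IAA (y axis, %) by distance between the bins (x axis, kb), for pairs without a CTCF-list anchor, with anchors in both bins but outside the CTCF list, and in the CTCF list; bars are 95% Wilson intervals. The sets overlap at 6 to 20 kb, and at 102 to 298 kb CTCF-list pairs are at 12.9% against 41.4% for pairs without an anchor.

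Contacts of the CTCF-list members that stayed in both lists were lower as well. Their median log2 ratio was -0.15 over 142 members, with 62.7% below 0 and 11 of 139 at least 2-fold lower against 1 at least 2-fold higher. For members without an anchor the median was 0.03, with 43.5% below 0. Of the 32 CTCF-list members over 50 kb in both lists, 28 were below 0 and the median was -0.56. Members in the CTCF and the RAD21 list together had a median of -0.21, with 10 of 68 at least 2-fold lower and 0 at least 2-fold higher. Of the strongest CTCF-list members, the Klrb1c pair had 159 contacts without treatment and 116 after IAA. The next had 119 and 143 near Hvcn1, 113 and 135 near Ptma, 97 and 99 between Ahdc1 and Wasf2, and 95 and 90 near Med13l. Each of these last 4 lay within its counting interval of no difference, 3 of them spanned 8 kb, and all 5 were called in both lists. The bins of the Hvcn1 pair shared 9.06% of their 31-base words.

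Motif orientation was available for part of the CTCF-list members. With the exact core, 30 had matches on 1 strand only in each bin, and 18 of these (60%) were convergent, 12 were on the same strand and 0 were divergent. None of the 18 convergent members was called again, a count of 0 that allows a share of up to 16.7% by a limit of 3 counts and 17.6% by the Wilson interval. Of the pairs with both matches on 1 strand, 1 of 7 on the plus strand and 1 of 4 on the minus strand were called again. Allowing 1 mismatch gave 179 members, of which 87 (48.6%) were convergent and 10 (5.59%) divergent. Of the convergent ones 15 of 84 were called again, or 17.9% (11.1 to 27.4), and of the divergent ones 6 of 10 (60%, 31.3 to 83.2). Pairs with both matches on the plus strand gave 7 of 40 (17.5%, 8.75 to 32.0) and on the minus strand 10 of 41 (24.4%, 13.8 to 39.3), so the share of convergent members was not set apart from these. The convergent members spanned a median of 66 kb and the divergent ones 11 kb, so orientation and span cannot be told apart here.

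Linked bins formed many small groups and some large ones. Taking bins joined by any member as connected, the 15972 members made 2428 clusters over 12395 bins. Of these, 1225 clusters (50.5%) held 2 bins only and 865 held 3 to 9. The 338 clusters of 10 or more bins held 11201 members (70.1%). Members in clusters of 2 bins were called again in 21.6% of cases (18.8 to 24.7), in clusters of 3 to 9 bins in 45.5%, and in clusters of 10 or more in 50.3%. Cluster size was counted from both lists, and the median untreated count rose with it, from 11 to 14 and 15 contacts. A single bin had up to 34 partners, while 49.4% of bins had 1.

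The largest cluster ran from Esrrb, which encodes the orphan nuclear receptor of the motif above, past Irf2bpl to Cipc (chr12:86396001-86946000). It held 72 bins and 286 members, 257 in the untreated list and 152 after IAA. Its bin with the most partners (chr12:86916001-86918000), about 30 kb from the Cipc start, had 34. The cluster was in fact 2 groups, of 24 and 48 bins, joined by 1 pair of 298 kb. That pair had 14 contacts after IAA and was not called without treatment, when the groups were separate. The smaller group was the Esrrb gene body. Summed contacts of the 123 members in both lists were 2512 and 2341 (log2 ratio -0.07, 95% interval -0.15 to 0.01).

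**Figure D4:**
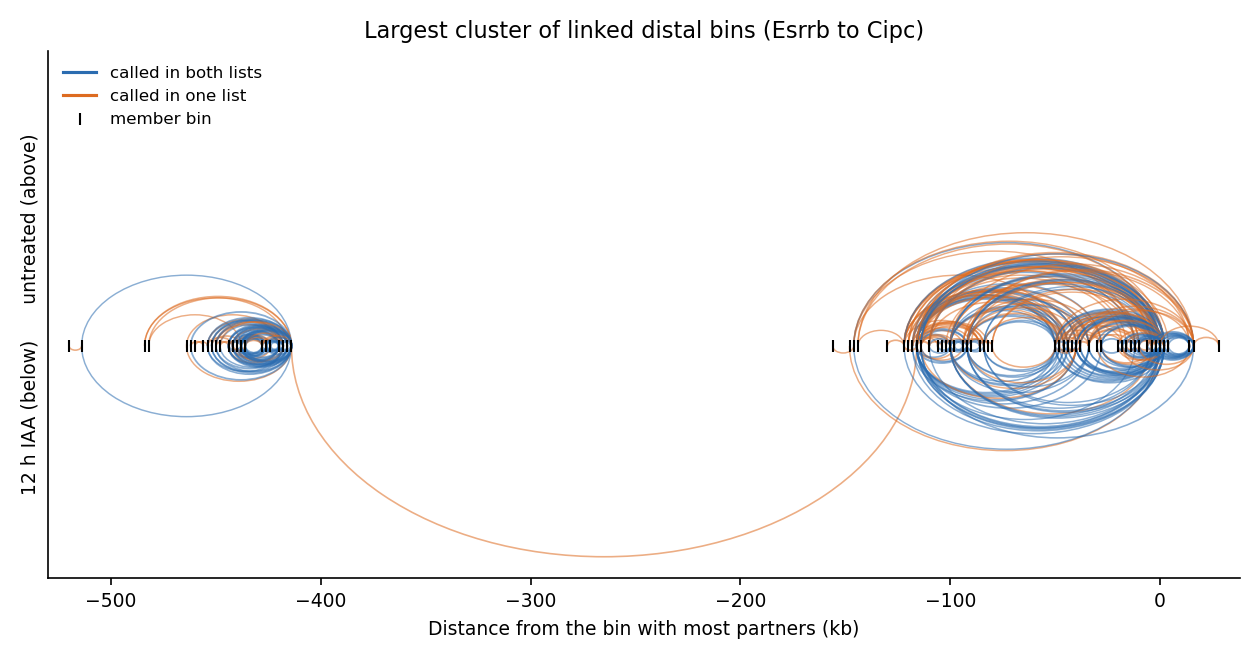
Members of the largest cluster, drawn as arcs between bins along distance from the bin with most partners (x axis, kb), with the 257 untreated members above and the 152 members after IAA below; arc height is proportional to span, line width to the square root of contacts, and ticks mark the 72 bins. Groups of 24 and 48 bins stand apart, joined by 1 arc of 298 kb in the lower panel only.

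Of the other large clusters, the second joined Cd9, a tetraspanin gene, with Vwf (chr6:125284001-125606000) and held 42 bins and 185 members (log2 ratio of summed contacts -0.04, interval -0.12 to 0.05). The third, Rbfox2 to the Apol genes (chr15:76940001-77370000), held 60 bins and 183 members, and had the lowest ratio of the 8 clusters with most members (-0.24, -0.33 to -0.14). Its bin with the most partners, 23 of them, was Rbfox2 bin 1, a CTCF-list anchor. The fourth held Nanog, Dppa3 and Slc2a3 (chr6:122342001-122938000), with 53 bins, 157 members and a ratio of -0.11 (-0.21 to -0.01). Its central bin, printed above, lay 4.49 kb from the Nanog start and had 29 partners. The cluster at Hs6st1 (chr1:35838001-36072000) held 41 bins and 146 members around 1 gene start (0.04, -0.07 to 0.14). The one from Epha2 to Spen (chr4:141140001-141576000) held 42 bins and 126 members (-0.15, -0.25 to -0.05). In the untreated list alone it had 110 members in 1 group of 41 bins. The IAA list alone gave 70 members in 4 groups, 1 of 27 bins and the others of 2 bins each. A link missing from that shorter list is not shown to be absent. Intervals on summed contacts cover counting error only, and 1 of the 8 clusters is not named here.

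The cluster at Sfi1, a gene for a centrosome protein, stood apart in its values. It covered 62 kb (chr11:3130001-3192000), of which 20 bins were linked by 152 members. Of its bin pairs 6 kb to under 62 kb apart 90.5% were members, against 24.3% to 44.8% in the other 7 clusters at these distances. Of its 129 untreated members 123 were called again (95.3%), and summed contacts of these 123 were 3317 and 4185 (log2 ratio 0.36, 0.30 to 0.43). With the model totals the ratio was 0.11 (0.05 to 0.18). Median coverage of its bins was 7054 read pairs without treatment, against 1832 to 2635 in the other 7 clusters, and 9509 after IAA. None of its bins was a CTCF- or RAD21-list anchor. The bins held a median of 36.5% repeat sequence, against 17.5% to 32.2% in the others. No member there shared 5% or more of its 31-base words between bins. Without this cluster 46.9% of untreated members were called again.

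Member bins lay in genes about as often as outside them. The centre of the bin was in a protein-coding gene body for 45.5% of the 12395 bins, in another gene only for 6.91%, and intergenic for 47.6%. All 17209 peak bins of the lists without a start gave 48.1%, 6.68% and 45.3%, so the member shares were near this background. An intron without any exon in the bin accounted for 29.7% of bins, and a bin with an exon for 15.9%. A neighbouring bin held a transcript start for 30.1% of member bins, against 34.2% of all peak bins without a start. The median distance to the nearest protein-coding start was 11.5 kb (quartiles 3.38 and 29.6 kb), and 14.9% of bins lay over 50 kb away. Pairs with both bins in 1 protein-coding gene made up 25.8% of members (4122). Pairs with neither bin in such a gene made up 45.4%, those with 1 bin in a gene 24.6%, and those joining different genes 4.17%.

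Contacts of pairs inside 1 gene had a mean log2 ratio of 0.09, with 39.3% below 0, while for pairs joining different genes it was -0.08 with 54.7% below 0, and over all members it was 0.02 with 45.7%. With the model totals each mean is lower by 0.25, which turns the former below 0. The pairs inside 1 gene had a median span of 12 kb and the pairs between genes 42 kb, and the part of span was not tested. Of 1035 genes that held both bins of a member, 509 held 1 and 108 held 10 or more. Sfi1 led with 146, followed by Etl4 with 88, Rnf220 with 81, Arid5b with 79, Esrrb with 67, Fbxo36 with 61, and Macf1 and Tns3 with 60 each. One of the 10 leading genes is not named here, and another, Gm20388 with 57, is a read-through annotation of 4435 kb that overlaps many genes.

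Among these genes the ratios of summed contacts ranged widely. Fbxo36 (chr1:84839841-84900487) had 1086 contacts without treatment and 1422 after IAA over 40 members in both lists (log2 ratio 0.42, 0.30 to 0.53). Arid5b, which encodes a DNA-binding protein (chr10:68092520-68278740), had 674 and 767 over 36 (0.22, 0.06 to 0.37). Etl4 (chr2:19909780-20810713) had 907 and 997 over 31 (0.17, 0.03 to 0.30). With the model totals Fbxo36 remained above 0 (0.17), whereas Arid5b and Etl4 turned to -0.03 and -0.08. Rnf220 (0.07, -0.10 to 0.23), Macf1 (0.03, -0.10 to 0.17), Tns3 (0.14, -0.08 to 0.36) and Esrrb (-0.02, -0.16 to 0.11) had intervals that included 0. This too depended on the scaling. Under the model totals Rnf220 (-0.18, -0.35 to -0.02), Macf1 (-0.22, -0.35 to -0.08) and Esrrb (-0.27, -0.41 to -0.14) lay below 0. The Tns3 interval still included it (-0.11, -0.33 to 0.11).

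Most members were also tied to promoters. In the untreated list 74.1% of members had a bin that was itself linked, in that list, to a bin with a protein-coding start, and for 56.6% the start was that of a bin's nearest gene. Both bins were linked to the same start bin in 26.0% of members, which makes a closed triangle of 2 distal bins and 1 promoter. Such members were called again in 61.8% of cases (60.1 to 63.5), against 36.4% (34.8 to 38.1) of the 25.9% without any linked start. Their median untreated counts were 17 and 13. After IAA the shares were 70.6% with a linked start, 53.5% with that of the nearest gene and 23.0% in triangles, in a shorter list. The bins had the same nearest protein-coding gene in 64.7% of members, and these were called again in 51.2% of cases against 40.5% of the rest. A protein-coding start lay between the bins of 39.6% of members, which were called again in 38.3% against 53.4% where none did. Members across a start spanned a median of 38 kb and the others 12 kb.

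Genes of the pluripotency network had many members nearby. Of 30 such genes 24 (80.0%) were the nearest gene of a member bin and 21 (70.0%) had at least 3 members, against 16.1% and 7.47% of all 21924 protein-coding genes. Of 20 lineage genes 3 had a member (15%), with 10 for Sox1 and 6 for Otx2. These counts serve as the check of the labelled cell type. Lin28a, Utf1, Nr5a2, Nr0b1 and Rif1 had 0, as did 1 gene not named here. Of 581 untreated members near these genes, each counted once, 54.6% were called again (50.5 to 58.6), against 47.5% of all members. Among genes with 10 or more, the share was highest near Pou5f1, which encodes OCT4, with 19 of 24 (79.2%, 59.5 to 90.8), and lowest at the growth factor gene Fgf4, with 13 of 45 (28.9%, 17.7 to 43.4). The untreated-only pair with the most contacts of all members, 56 against 17.1 predicted at 6 kb, lay in Fgf4.

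The log2 ratios of summed contacts at these genes were mostly small and below 0. Of 23 genes with a member in both lists 18 were below 0 (78.3%), with a median of -0.12, against 44.4% of 1619 nearest genes in all, whose median was 0.03, and 0 had a member past the adjusted binomial test. A member nearest to 2 of these genes counts for both, so Lefty1 and Lefty2 share their 1 pair. With the model totals all 23 were below 0, since every ratio is then lower by 0.25. Klf2, a Krüppel-like factor gene, was the nearest gene of 8 bins, and 71 members had at least 1 of these bins. The 33 of them in both lists held 887 and 801 contacts (log2 ratio -0.12, -0.26 to 0.02). At the transcription factor genes Sox2 (68 members, -0.16, -0.32 to -0.0014), Esrrb (68 members, -0.02, -0.16 to 0.11) and Nanog (64 members, -0.05, -0.18 to 0.08) the sums differed by little more than their counting error, or less. Klf5, another Krüppel-like factor gene, had 666 and 645 contacts over 20 pairs (-0.02, -0.18 to 0.14). Tet2, which encodes a methylcytosine oxidase, had 757 and 622 contacts over 17 pairs (-0.25, -0.41 to -0.10). Above 0 lay Zfp42, the Rex1 gene, with 699 and 767 contacts over 20 pairs (0.16, 0.01 to 0.31) and Pou5f1 with 512 and 553 over 19 (0.14, -0.04 to 0.32), and both were below 0 with the model totals.

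Dppa5a, a marker gene of naive stem cells, had the lowest ratio of the list. Its 8 members in both lists held 284 contacts without treatment and 189 after IAA (log2 ratio -0.56, -0.83 to -0.29), and each of the 8 was lower after IAA. The largest difference was 36 against 17 contacts (chr9:78358001-78360000 and chr9:78372001-78374000), which did not pass the adjustment (adjusted p 0.801 in the binomial test). The others had 42 and 25, 37 and 22, 39 and 25, 35 and 22, 21 and 14, 46 and 39, and 28 and 25 contacts. The cluster that holds these bins (chr9:78176001-78528000) had 592 and 420 contacts over 20 pairs in both lists (-0.47, -0.65 to -0.28), of which 16 were lower. Its 12 pairs outside the 8, nearest to Ooep, Eef1a1 or the Gsta genes, had 308 and 231 (-0.39, -0.64 to -0.14), so the lower contacts were not limited to bins nearest to Dppa5a. None of the 4 bins nearest to Dppa5a was a CTCF-list anchor, but 6 of the 18 bins of the cluster were, and 2 of the 8 pairs had an anchor in the other bin. Median coverage of the 4 bins was 4608 read pairs without treatment and 4774 after IAA, a median ratio of 1.04 against the 1.17 of all member bins.

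**Figure D5:**
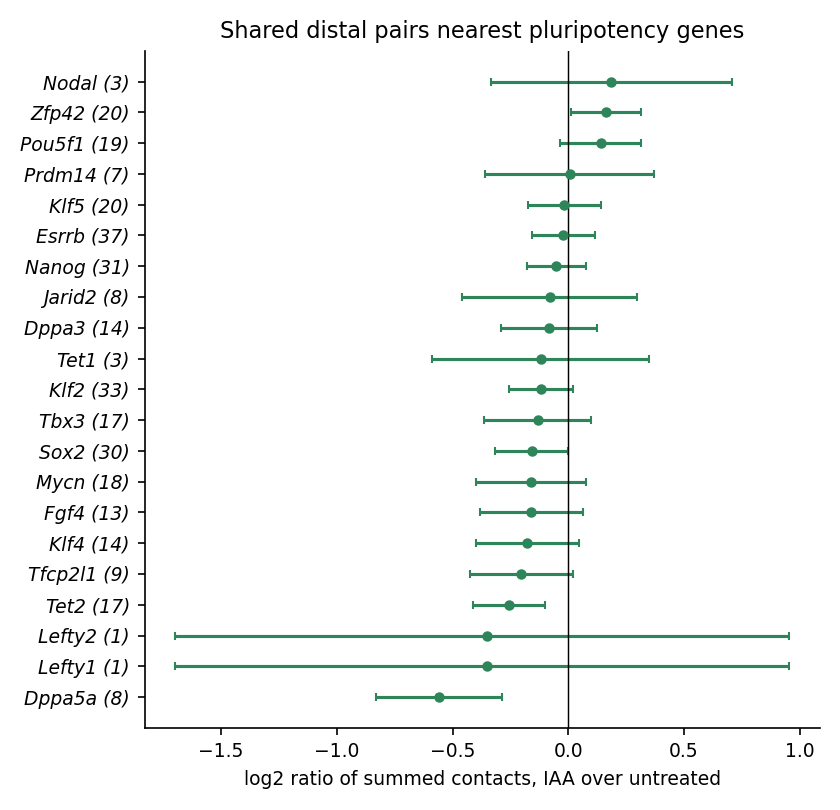
Log2 ratio of summed contacts, IAA over untreated (x axis), for pluripotency genes with at least 3 members (y axis, with the number of members in both lists in brackets); points are ratios scaled to all shared pairs and bars 95% counting intervals. Dppa5a lies lowest at -0.56, and most genes lie left of 0.

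The 5 members with the most contacts did not lie at any of these genes. They had 428, 356, 320, 303 and 301 untreated contacts and 509, 433, 364, 356 and 450 after IAA, with the nearest genes Zfp706, Tmem130, Vat1l and Clec3a, Slc30a1 and Rd3, and Tmem64. All spanned 6 to 10 kb. The contacts were 8.32% to 43.7% of the coverage of the less covered bin, where the median member of 6 to 10 kb had 1.38%. Observed counts were 48.4 to 80.7 times the predicted ones. The sequence between the bins was 51.1% to 98.3% repeat, against a median of 31.1% at this span. In each of the 5, the bins shared at least 5% of their 31-base words. Only 23 of the 15972 members (0.144%) did so, and 87.0% of them were called again with a median log2 ratio of 0.29. These pairs were ranked by contacts first and examined for repeats afterwards, and the part of sequence similarity in their counts was not tested.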

How the data were processed

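MNase HiChIP was measured with antibodies to H3K27ac, CTCF and RAD21. The deposited contact counts and bin coverages are whole numbers per bin pair or bin, which the authors pooled over replicates. Per the file headers, each list also gives the authors' predicted contact count (a score from their model), the probability per contact (a fraction), a p-value, a q-value, the peak flags and the distance. Trim Galore, BWA, MACS2, deepTools and mm10 are named in the submitters' processing notes. Filters and the settings of the interaction caller are not given in the sources used here. Bins were 2 kb for H3K27ac and 1 kb for CTCF and RAD21, whose anchors were assigned to 2 kb bins.

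Members were found with GENCODE M21 starts, and 0 of 27762 peak bins lay beyond an mm10 chromosome end. Members in both lists were compared by the exact two-sided binomial test on contacts, scaled to the totals of all 15551 shared pairs and adjusted by Benjamini-Hochberg over all of them (scipy 1.17.1, statsmodels 0.14.6). Shares carry 95% Wilson intervals. The test was checked on simulated counts. Clusters are connected components of linked bins (networkx 3.6.1), and sequence was read with pysam 0.24.0.

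The members, gene lists and tests were chosen with earlier results of these data known. Named were the 8 clusters with most members, the 5 largest falls and rises with at least 20 contacts, the members with most contacts in the untreated list, in each list alone and in the CTCF list, the 10 genes holding most pairs, and pluripotency genes with at least 3 members. Dppa5a members, and sequences near Rbfox2, were detailed after their values were seen. Loci on chromosome 18 were counted and not named, and 1 member that the rule names is not reported here. Alternatives covered the start rule, q-value, counts, scaling, bin tolerance and motif, and others, such as leaving out Sfi1, were added after seeing the data.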

Additional observations from a re-analysis of the deposited data

How the results depend on the processing

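No paired analysis was possible because each list is pooled over its replicates, and no list without a replicate could be made. The number of members fell to 9006 without starts in neighbouring bins. The share of untreated members called again was 75.5% with each bin free by 1 bin, 56.1% at an untreated q of up to 0.01, 51.7% at 10 contacts or more, 53.5% with lists of equal length and 49.2% without starts in neighbouring bins. The members changed in the binomial test were 2 higher and 22 lower with the model totals, and 3 higher and 1 lower at an adjusted p of 0.01. The shares of all shared pairs called at these settings are not given here, so these counts cannot be read against them. The members at least 2-fold higher and lower were 15 and 201 with the model totals, 37 and 37 at 40 contacts or more, and 487 and 413 at 1.5-fold. The first counts are 0.271% and 3.63% of members tested, against 0.316% and 4.11% of all shared pairs. For the 40-contact and 1.5-fold settings the shares of all shared pairs are not given here, so those counts cannot be read against them. The median log2 ratio reversed to -0.22 with the model totals and to -0.012 after division by coverage. The share of bins in genes was 45.5% for protein-coding genes and 54.8% for any overlap, and that of pairs with the same nearest gene was 44.1% over all annotated genes. Members with a CTCF-list anchor made up 56.5% when an anchor within 1 bin counted, 30.1% at a CTCF-list q of up to 0.01, and 20.7% at 20 CTCF contacts or more. The CTCF core lay in 32.5% of member bins with 1 mismatch and 3.32% without repeat bases. For CTCF-list members the share called again was 44.4% with each bin free by 1 bin and 25.5% without starts in neighbouring bins. Of 62 alternative values 34 stayed within the limits used, which were 1.5 times for a count, the 95% interval for a share and 1 SD over pairs for a median. These limits are wide: the median of CTCF-list members, for instance, went from -0.15 to -0.40 with the model totals. Depth limits all of this, since most members have under 25 contacts and a call missing from a list is not a contact shown to be absent.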

Other observations

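Members called in 1 list only with the most contacts were mostly the shortest pairs allowed. Of the 5 untreated-only members with most contacts, 4 spanned 6 kb, and all 5 such members of the IAA list did. Besides the Fgf4 pair, the untreated-only ones were a pair between Irf2bpl and Cipc with 55 contacts, Rbfox2 bins 2 and 3 with 52, a pair near Zbtb34 with 50 that was in the CTCF list, and a pair in Sfi1 with 49. Among those called after IAA only, pairs in Sfi1 had 46 and 45, a pair at Ttc39b had 45 and a pair in Prrc2b had 43. Predicted counts at these 6 kb pairs were 8.90 to 22.8. The counts in the other list were not analysed here.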
